A study of Rattus norvegicus with 4 samples.

Results

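Cell adhesion molecules are the surface proteins by which cells hold to each other and to their surroundings, and 8 of their genes were examined here in PC12 cells, namely Vcam1, Icam1, Ncam1, L1cam, Nrcam, Cntn1, Thy1 and Cdh2. PC12 is a rat line derived from a pheochromocytoma, a tumour of adrenal chromaffin cells. The genes were taken from the arrays as all non-control probes whose RefSeq accession belongs to these genes, which gave 9 probes of 40923 and 8 genes of 8884 named ones. The set was selected on the difference between the MAX vector and the empty vector that Vcam1 shows in these same arrays, and was filled up with other adhesion molecules of nerve cells. The differences of these 8 genes are thus a description and no independent evidence. The MAX vector group is a PC12 line transfected with a plasmid coding for MAX, the partner through which MYC proteins bind DNA and which PC12 cells are known to lack in functional form. The empty vector group is a PC12 line transfected with the plasmid backbone alone, and both were selected with a drug that the labels call E418. A group is thus 1 line of transfected cells, and its 2 one-colour arrays of total RNA come from passages 8 and 13. The labels do not say which replicate comes from which passage, and the spread within a group is that between samples of a line, not between independent transfections.

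Most of these proteins belong to the immunoglobulin superfamily. VCAM1 and ICAM1 are bound by integrins on other cells and are best known on endothelium, where inflammatory signals acting through NF-kB induce them. NCAM1, L1 and its relative NrCAM bind the same or related molecules on neighbouring neurites and take part in neurite growth and bundling, and NCAM1 is a classical surface marker of neuroendocrine cells. Contactin-1 and Thy-1 are held in the membrane by a lipid anchor and have no intracellular part. Cdh2 encodes N-cadherin, which joins like cells in a calcium-dependent way through the catenins.

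Per array, the scanner's software marked 64.5% to 71.6% of probes as well above background and 0 spots as saturated. Signals are given as log2 of the processed signal minus the array's 75th percentile over probes, which lay at 590.0 and 666.3 signal units on the MAX vector arrays and 700.5 and 611.4 on the empty vector arrays. A value can be compared between arrays for a probe, but not between probes. The Max probe was well above background on 0 of the 4 arrays, at -7.61 and -7.94 with the MAX vector and -8.36 and -8.07 with the empty vector, so it does not check the labels. MAX vector replicate 1 lies alone on slide 2, while the other 3 arrays share slide 1. With 4 arrays, their number limits the precision.

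Of the 8 genes, 6 were well above background on all 4 arrays and could be compared. The Vcam1 signal was 4.39-fold lower with the MAX vector, those of L1cam, Thy1 and Cdh2 were lower by 1.54- to 1.55-fold, that of Ncam1 was lower by 1.15-fold, and that of Icam1 differed by less than the spread between replicates. Of these 6 differences, limma called that of Vcam1 and not the other 5. Cntn1 and Nrcam gave no level that could be compared. In RNA from whole cultures, fewer cells that express a gene and less RNA of it per cell cannot be told apart.

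**Figure D1:**
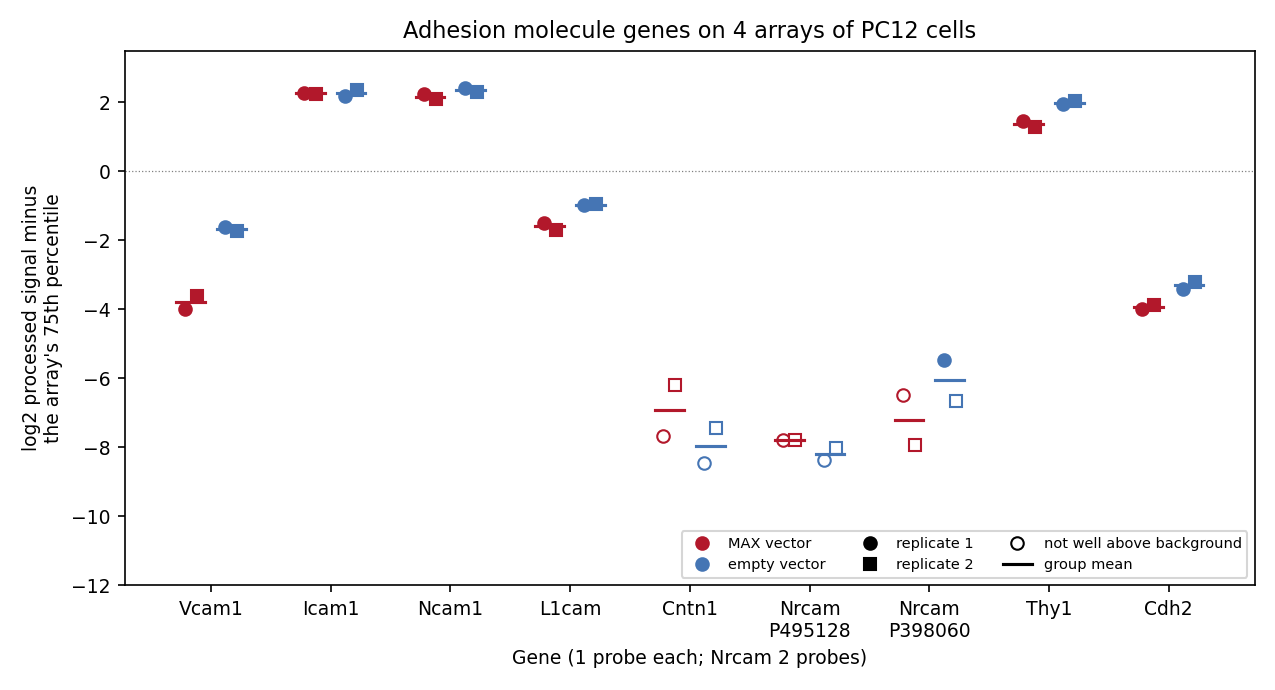
Log2 processed signal minus the array's 75th percentile for each of 9 probes of the 8 genes, with MAX vector arrays in red left of empty vector arrays in blue, circles for replicate 1, squares for replicate 2, bars for group means and open symbols for arrays on which the probe was not well above background. Vcam1, L1cam, Thy1 and Cdh2 separate by vector, Icam1 overlaps, and Cntn1 and both Nrcam probes lie near background. Heights of different probes are not comparable with each other.

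Vcam1 encodes the adhesion molecule that binds integrins of the alpha-4 class. Its signal was -3.97 and -3.62 on the MAX vector arrays, against -1.61 and -1.72 on the empty vector arrays. Put as a share of the array's 75th percentile, this is 6.36% and 8.12% with the MAX vector and 32.8% and 30.3% with the empty vector. The groups did not overlap, and the gap between the nearest arrays of different groups was 1.90 on the log2 scale. The group means were -3.80 ± 0.25 with the MAX vector and -1.66 ± 0.08 with the empty vector (SD, n = 2 each). Their difference was -2.13 ± 0.16 (SE), which leaves 22.8% of the empty vector signal. It was the 31st most negative of the 25356 genes tested, of which 6316 carry a gene name and the others are annotation entries without a matched name.

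Icam1, which encodes the related ligand of leukocyte integrins, did not separate by vector. Its signal was 2.28 and 2.25 with the MAX vector, against 2.19 and 2.37 with the empty vector. Both MAX vector arrays lay between the empty vector arrays. The difference was -0.02 ± 0.11 on the log2 scale and changed sign in 2 of 14 alternative settings. The Icam1 probe was printed in 10 spots on each array, and the spots of an array varied with an SD of 0.06 to 0.09. The distance between the empty vector arrays, at 2.19 and 2.37, was thus larger than the SD among spots of an array.

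The start regions of Vcam1 and Icam1 are shown because these ligands share an inflammatory control in other cells and differ here. RefSeq's table for GRCr8 holds a promoter for 3 of the 8 genes, Vcam1, Icam1 and Cntn1. Printed are the 250 bases before the annotated start, 5′ to 3′ along the gene's strand, for Vcam1 at chr2:206742784-206743033 on the minus strand and for Icam1 at chr8:27829595-27829844 on the plus strand. Capitals mark matches, on either strand, to CACGTG, the E-box that MYC and MAX bind, to GGGNNTTCC, a form of the NF-kB motif, or to the TATA motif TATAAA.
Vcam1: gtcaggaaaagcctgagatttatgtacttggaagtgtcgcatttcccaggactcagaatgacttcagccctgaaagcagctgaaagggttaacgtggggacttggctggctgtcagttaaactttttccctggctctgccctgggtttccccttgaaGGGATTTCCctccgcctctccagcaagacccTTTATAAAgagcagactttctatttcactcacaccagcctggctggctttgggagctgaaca
Icam1: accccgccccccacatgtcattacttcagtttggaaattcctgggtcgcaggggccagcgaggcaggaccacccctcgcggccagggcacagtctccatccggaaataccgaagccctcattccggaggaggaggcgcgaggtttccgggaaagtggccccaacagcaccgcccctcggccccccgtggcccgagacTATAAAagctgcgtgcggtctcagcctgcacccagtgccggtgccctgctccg
The Vcam1 stretch holds 1 match to GGGNNTTCC, which starts 93 bases before the annotated start as GGGATTTCC. It also holds TATAAA starting 60 bases before the start, which overlaps a match on the other strand that begins 62 bases before it. The Icam1 stretch holds TATAAA 53 bases before the start and no match to GGGNNTTCC. Only this form of the NF-kB motif was searched, so sites of another form are not marked in either stretch. Whether Icam1 lacks an NF-kB site, or Vcam1 has more than 1, was thus not tested. CACGTG was found in none of the 3 promoters (count 0), which says only that these letters are not in these windows. Among 33469 promoters of the same length, 5.59% hold CACGTG, 5.09% hold GGGNNTTCC and 12.9% hold TATAAA. GC content was 50.4% for Vcam1 and 66% for Icam1.

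Ncam1 encodes the neural cell adhesion molecule. Its signal was 2.25 and 2.09 with the MAX vector, against 2.43 and 2.31 with the empty vector. The groups did not overlap, but the gap between them was 0.06 on the log2 scale, which is smaller than the distance between the arrays of either group. The difference was -0.20 ± 0.11, which leaves 86.8% of the empty vector signal. Of the 20 MAX vector spots of its probe, 11 lay below the lowest of the 20 empty vector spots. These are repeat spots on 2 arrays per group and no independent samples.

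L1cam encodes L1, which binds like molecules on other neurites and is tied to the membrane skeleton through ankyrins. Its signal was -1.48 and -1.70 with the MAX vector, against -0.98 and -0.94 with the empty vector. The groups were 0.51 apart at their nearest arrays, more than the arrays of either group differed among themselves. The difference was -0.63 ± 0.12 on the log2 scale, or 64.5% of the empty vector signal.

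Thy1, which encodes an anchored surface protein of neurons that is also carried by fibroblasts and T cells, was lower by a similar amount. Its signal was 1.47 and 1.28 with the MAX vector, against 1.95 and 2.04 with the empty vector. Both MAX vector arrays lay below both empty vector arrays, by 0.48 at the nearest. The difference was -0.62 ± 0.11, or 65.1% of the empty vector signal.

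Cdh2, the N-cadherin gene, had -3.99 and -3.88 with the MAX vector, against -3.40 and -3.20 with the empty vector. The difference was -0.63 ± 0.12 on the log2 scale, or 64.4% of the empty vector signal. Its probe was also printed in 10 spots per array, which varied with an SD of 0.16 and 0.12 on the MAX vector arrays and of 0.07 and 0.11 on the empty vector arrays. All 20 MAX vector spots lay below all 19 empty vector spots kept, with the highest MAX vector spot at -3.62 and the lowest empty vector spot at -3.55. Spots of an array share its RNA, so this remains a comparison of 2 arrays per group. The 10th spot of empty vector replicate 2 carried an outlier flag and was left out. The signal was dim, with 37.2 and 45.2 signal units with the MAX vector and 66.4 on each empty vector array. With normexp, a background correction that adds 50 units to every signal, the difference was -0.30.

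**Figure D2:**
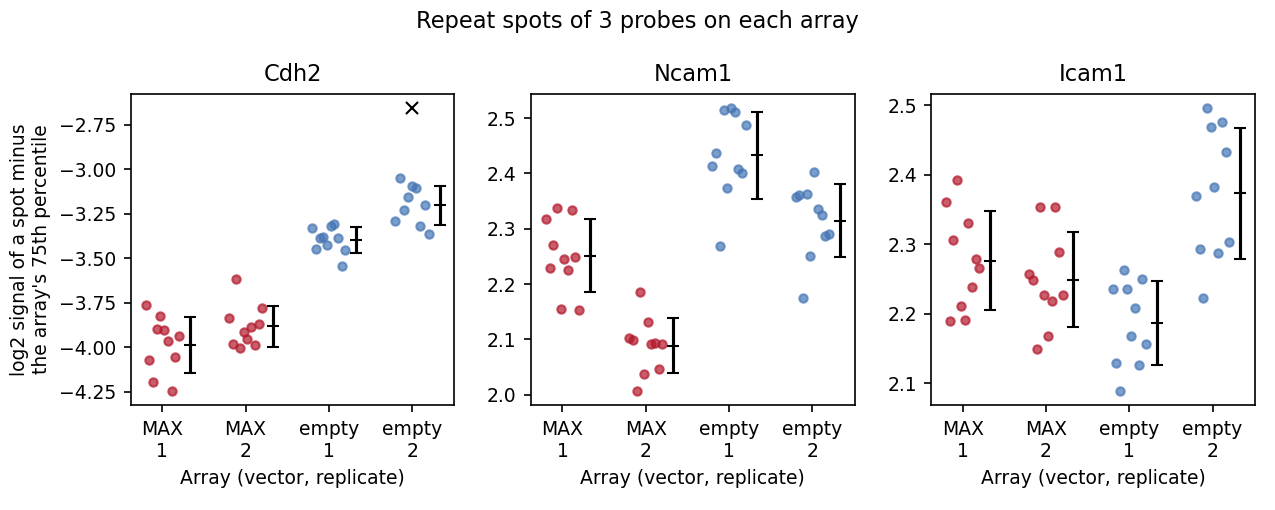
Log2 signal of each of the 10 repeat spots of the Cdh2, Ncam1 and Icam1 probes minus the array's 75th percentile, MAX vector arrays in red left of empty vector arrays in blue. Black bars give the mean and SD over spots kept, and the cross is the flagged spot left out. The spots of Cdh2 separate by vector, with -3.62 as the highest MAX vector spot and -3.55 as the lowest empty vector spot, while those of Ncam1 and Icam1 overlap. The vertical ranges differ between panels.

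Cntn1, the contactin-1 gene, had a probe that stayed near background on every one of the 4 arrays. It read -7.66 and -6.19 with the MAX vector and -8.45 and -7.45 with the empty vector, values that overlap. Nrcam has 2 probes. The first was well above background on 0 of the 4 arrays, with -7.79 and -7.79 in the MAX vector group and -8.38 and -8.02 in the empty vector group. The second was well above background only on empty vector replicate 1, at -5.45, with -6.48 and -7.92 in the MAX vector group and -6.66 on empty vector replicate 2. The means of the Nrcam probes differed in opposite directions, by 0.41 and -1.14 on the log2 scale. The values of neither gene are read as a fold change, since these signals are not well above background.

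The 6 genes that could be compared entered a limma fit over 25356 genes, in which each entry is represented by its brightest probe. Of these entries, 6316 carry a gene name. The others are counted by their annotation entry, so a gene without a matched name can enter more than 1 time. The fit called 1 of the 6 lower with the MAX vector at an adjusted p of 0.05 after Benjamini-Hochberg adjustment, Vcam1, where 0.264% of all genes were called lower. It called 0 of the 6 higher, where 0.576% of all genes were called higher. In 5 of the 6, all but Icam1, both MAX vector arrays lay below both empty vector arrays, and 26.0% of all genes did so. In 0 of the 6 both lay above, against 24.2% of all genes. The median log2 fold change was -0.63 over the 6 and -0.02 over all genes tested. Because the genes were selected on this comparison, nothing is read from these counts. Vcam1 kept its call in 8 of 14 alternative settings and lost it with no filter on dim probes, with the slide or the replicate number as a block, and without either empty vector replicate or MAX vector replicate 1. Its log2 fold change there ran from -2.31 to -1.34, the last with normexp, and was -1.96 on slide 1 alone. The 14 settings are not independent checks. Vcam1 has 1 probe, the authors' value table holds the same measurements, and the slide block equals leaving out MAX vector replicate 1.

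**Figure D3:**
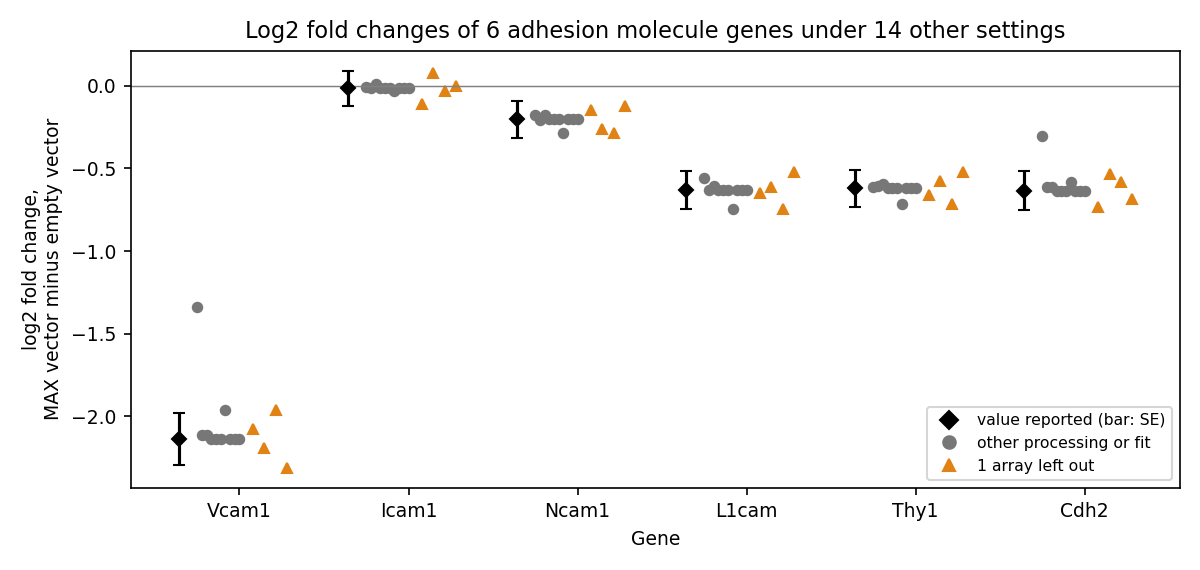
Log2 fold change, MAX vector minus empty vector, of the 6 genes that could be compared. Black diamonds with SE bars are the values reported, grey circles the other ways of processing or fitting, and orange triangles the fits with 1 array left out. Vcam1 stays between -2.31 and -1.34, L1cam between -0.74 and -0.52 and Thy1 between -0.72 and -0.52, while Icam1 lies on both sides of 0.

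The genes whose pattern over the 4 arrays lay nearest to that of Vcam1 were sought among 5789 named genes well above background on every array, by Euclidean distance between values centred on each gene's mean. The nearest was Nefl, the light neurofilament subunit gene, at a distance of 0.20 on the log2 scale. It had -5.42 and -4.82 with the MAX vector, against -2.96 and -3.16 with the empty vector. Nefm, the middle neurofilament subunit gene, followed at 0.34, Angptl4, the gene of a secreted lipase inhibitor, at 0.44, Anxa3, an annexin gene, at 0.45 and Dhrs3, a retinal reductase gene, at 0.46. Their log2 fold changes lay between -2.40 and -1.75. These likenesses rest on 4 arrays that share their normalisation and are a description.

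A set of 6 lists of genes that work with these molecules was tested in the same fit. The lists were chosen with earlier results of these data known, so their values are a description too. Of 144 genes listed, 76 could be tested, 1 was called, and it was lower. Over all genes tested, limma called 0.264% lower and 0.576% higher. At these shares lists of this size hold few calls or none, so nothing is read from the counts called. Counts of unadjusted p below 0.05 in the lists stand beside 16.1% of all genes tested, and counts of negative fold changes beside 53.5%. The gene called was Cdh13, which encodes T-cadherin, a cadherin held by a lipid anchor. It had -1.59 and -1.50 with the MAX vector, against -0.36 and -0.30 with the empty vector. The groups were far apart relative to their spread, with a log2 fold change of -1.22 ± 0.09 and an adjusted p of 0.0376 in limma. A further Cdh13 probe gave -1.16. The call was kept in 7 of 14 alternative settings and lost in the other 7, which are those with no filter, with the slide or the replicate number as a block, and without any of the 4 arrays in turn.

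The other 7 tested genes of the cadherin and catenin list did not pass in limma. Of all 8, 4 had an unadjusted p below 0.05 (Cdh13, Cdh1, Jup and Cdh15), and 4 were negative. The list's median log2 fold change was 0.07, against -0.02 for all genes. Cdh1, which encodes the epithelial E-cadherin, had -1.60 and -1.43 with the MAX vector, against -3.08 and -2.55 with the empty vector. Its log2 fold change of 1.30 ± 0.21 did not pass (adjusted p = 0.117) and did pass in 3 of 14 alternative settings, among them normexp with 0.92. Jup, the plakoglobin gene, had 0.56 ± 0.09 (adjusted p = 0.121) and Cdh15, the M-cadherin gene, 0.74 ± 0.12 (adjusted p = 0.117). The catenin genes Ctnnb1 and Ctnna1, through which N-cadherin is tied to actin, had -0.07 ± 0.09 and 0.22 ± 0.13.

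**Figure D4:**
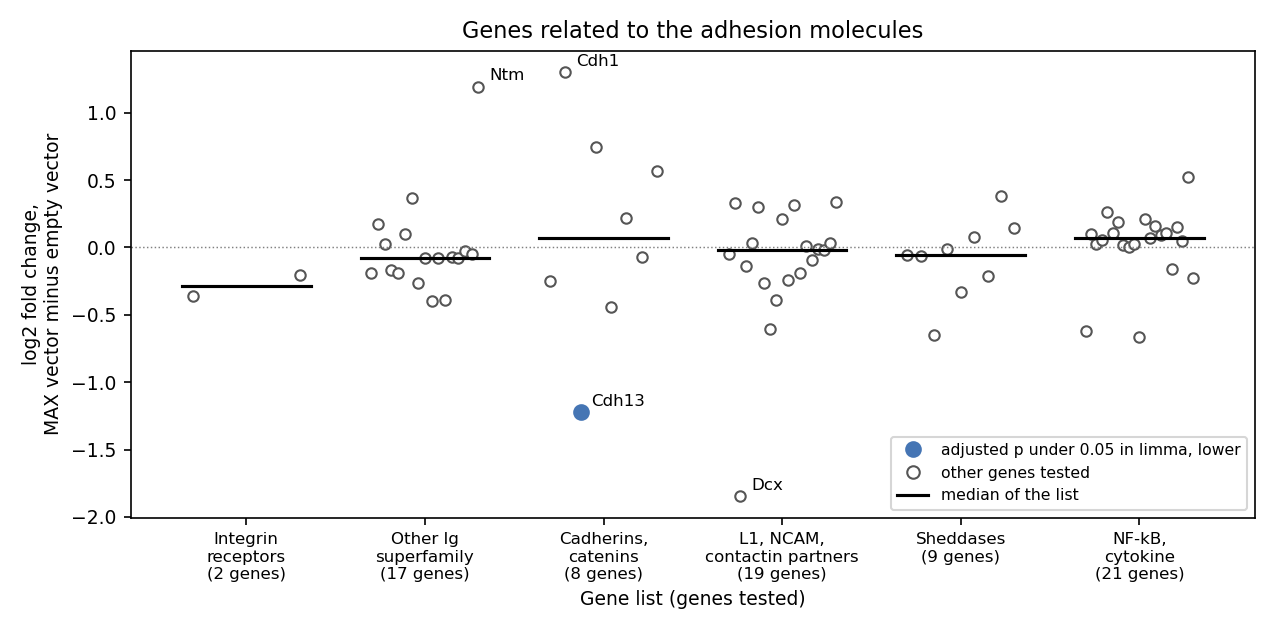
Log2 fold change, MAX vector minus empty vector, of each tested gene in 6 related lists. The filled blue point is Cdh13, the gene called lower in limma, open points are the other genes and black bars are list medians. Genes beyond 0.8 in either direction are named, and 75 of the 76 did not pass.

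Among the integrin genes whose products bind VCAM1 or ICAM1, 4 of 9 had a named probe. Of these, 2 could be tested and limma called 0 (1 had an unadjusted p below 0.05). Both were negative. Itga4, the alpha-4 subunit gene, was not among the genes tested. Itgb1, the beta-1 subunit gene, had 2.88 and 2.62 with the MAX vector, against 3.06 and 2.84 with the empty vector, values that overlap. Itgad, which was named after its values were seen and was well above background on 3 of 4 arrays, had -0.36 ± 0.11. Of 17 tested genes of other immunoglobulin superfamily molecules, limma called 0 (4 had an unadjusted p below 0.05), 12 were negative, and the median was -0.07. Kirrel1 had -0.40 ± 0.12, and Mcam, which encodes a further adhesion molecule of this family, had -0.39 ± 0.11. Ntm, the neurotrimin gene, had 1.19 ± 0.41 (adjusted p = 0.297) with a wide spread, at -4.35 and -4.95 with the MAX vector and -6.32 and -5.37 with the empty vector. F11r, a tight junction molecule gene, had 0.37 ± 0.09 (adjusted p = 0.203).

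Of 19 tested genes for cytoskeletal, kinase and other partners of L1, NCAM and contactin, limma called 0 (5 had an unadjusted p below 0.05), and 11 were negative, with a median of -0.02. Gfra1, which encodes a receptor for glial cell line-derived factor that can signal with NCAM, had -0.60 ± 0.11 (adjusted p = 0.133). Msn, which encodes the membrane-to-actin linker moesin, had -0.39 ± 0.10, and the kinase genes Fyn and Src had -0.26 ± 0.10 and 0.34 ± 0.10. Dcx, the doublecortin gene, which was named after its values were seen, had -1.85 ± 0.30 (adjusted p = 0.116). Its probe exceeded background clearly on both empty vector arrays and 1 of the 2 MAX vector arrays. It passed in 4 of 13 alternative settings, over which its log2 fold change ran from -2.25, without MAX vector replicate 2, to -0.53 with normexp. Sheddases cut adhesion molecules at the surface or in the membrane. Of 9 tested genes of their list, limma called 0 (2 had an unadjusted p below 0.05), and 6 were negative. The list also counts Timp3, an inhibitor gene, and Ncstn, the gene of a subunit that does not itself cut. Adam9 had -0.65 ± 0.16 by its brighter probe and -0.17 by the other, and Adam17, which sheds VCAM1, had -0.07 ± 0.10.

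Of 21 tested NF-kB and cytokine genes that regulate or accompany VCAM1 and ICAM1, limma called 0 (4 had an unadjusted p below 0.05), and 4 were negative. Their median was 0.07. Tnfrsf1a, a tumour necrosis factor receptor gene, had 0.52 ± 0.09 (adjusted p = 0.123), and the kinase gene Ikbkb and the subunit gene Nfkb2 had 0.27 ± 0.09 and 0.21 ± 0.11. Ccl2, a chemokine gene induced by NF-kB, had -0.62 ± 0.12 (adjusted p = 0.14) and the transcription factor gene Klf4 had -0.67 ± 0.12 (adjusted p = 0.131). With normexp Tnfrsf1a, Ccl2 and Klf4 passed, at 0.51, -0.58 and -0.72.

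Markers of cell types were read beside these results, as the range over arrays of the summed signal in multiples of the 75th percentile. Such a sum follows its brightest probe, so the sum without that probe is given as well. Of 15 chromaffin and sympathetic markers with a probe, 13 were well above background on all 4 arrays, and their sum was 19.3 to 19.4 with the MAX vector and 36.1 to 36.2 with the empty vector. Without Ddc, the dopa decarboxylase gene, it was 11.6 to 11.8 with the MAX vector and 19.7 to 19.9 with the empty vector. The list did not move as 1 block, since Ddc (log2 fold change -1.08, adjusted p = 0.0391 in limma) and Nefm (-2.40, adjusted p = 0.0197) fell while Th, the tyrosine hydroxylase gene, rose (2.15, adjusted p = 0.0203). Apart from Th and Chgb (0.17), every marker of this list with a probe had a negative log2 fold change. Of those negative ones, Ddc and Nefm alone passed in limma. Of 6 endothelial markers with a probe, Pecam1, Cldn5 and Emcn were well above background on 0 of the 4 arrays, and the sum was 0.119 to 0.160 with the MAX vector and 0.072 to 0.078 with the empty vector. That difference lay in Kdr, a VEGF receptor gene (1.98, adjusted p = 0.0701), and without it the sum was 0.047 to 0.054 with the MAX vector and 0.051 to 0.054 with the empty vector. Fibroblast markers, which include Thy1, summed to 138 to 147 with the MAX vector and 131 to 145 with the empty vector, with 5 of 6 above background on all arrays and Fap on 0. At least 95.8% of that sum was the collagen gene Col3a1, and without it the sum was 3.54 to 3.60 with the MAX vector and 5.49 to 6.07 with the empty vector. Most of that remainder was Thy1, a gene of the set. Thy1 alone lay at 277% and 242% of the 75th percentile with the MAX vector, and at 386% and 410% with the empty vector. The sum without Col3a1 is thus no independent reading beside Thy1. Beside Thy1, the matrix genes Lum and Dcn had log2 fold changes of -1.19 (adjusted p = 0.183) and 0.75 (adjusted p = 0.126). Epithelial markers, all 8 above background on all arrays, summed to 19.8 to 20.5 with the MAX vector and 11.04 to 11.96 with the empty vector, and the keratin gene Krt19 rose (3.19, adjusted p = 0.0263). Macrophage and leukocyte markers summed to 8.87 to 9.11 with the MAX vector and 4.89 to 5.63 with the empty vector, with 4 of 7 above background on all arrays and Aif1 and Itgam on 0. Without Cd14, a surface receptor gene, the sum was 0.706 to 1.22 with the MAX vector and 0.661 to 0.755 with the empty vector. For Schwann and satellite glia the sums were 0.537 to 0.673 with the MAX vector and 0.592 to 0.659 with the empty vector, with 3 of 9 above background on all arrays. The part of these differences in those of the adhesion molecule genes was not tested.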

How the data were processed

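Per the file headers, the authors' scanner files were written by Feature Extraction 10.7.3.1 with annotation on rn4 (the submitters' processing notes give Agilent Feature Extraction 10.7). The deposited spot intensity is background-subtracted and detrended within each array, and not scaled between arrays. The authors' deposited value table holds log2 values centred per probe on a baseline that stays unknown. Differences between its columns matched the scanner values (Pearson r = 1, with a median absolute disagreement of at most 0.0057 on the log2 scale), so its scale and direction are known. Column medians were -0.005 and -0.006 for the MAX vector and -0.033 and -0.011 for the empty vector.

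Spots with an outlier flag (89 to 140 of 43379 per array) were left out, repeat spots were averaged per probe on the log2 scale, and the array's 75th percentile over probes was subtracted. Names came from RefSeq accessions matched to the GRCr8 table (10746 of 40923 probes). Probes without a match were counted as genes under their own annotation entry. Coordinates of probes are not given, since the builds differ. Tests used 28564 probes well above background on at least 2 arrays, 1 per gene (the brightest), in limma 3.58.1 with R 4.3.3 (lmFit and eBayes) with Benjamini-Hochberg adjustment over all 25356 genes, of which 213 passed at 0.05. The steps were tested on simulated data.

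The 8 genes, the 6 lists and the markers were chosen with earlier results of these data known. Genes named from the lists were those that passed and, per list and direction, up to 4 with the largest change among those above background on all 4 arrays, and the 5 genes nearest to Vcam1. Itgad, Dcx and the markers named fall outside this rule and were chosen after their values were seen. Timp3 also falls outside it and is named for its role only. Alternatives changed background correction (normexp used the median spot signal and not the mean), scaling, filter, probe choice, blocks, eBayes settings and the value table, and left out each array.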

Additional observations from a re-analysis of the deposited data

How the results depend on the processing

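The count of 213 genes called in limma became 795 with normexp, 541 with median scaling, 515 with probes above background on all 4 arrays, 1098 with trend and robust eBayes and 8 with the slide as a block, which uses only the 3 arrays of slide 1 and so equals leaving out MAX vector replicate 1. With no filter on dim probes it was 0 (4033 at an unadjusted p under 0.05). Leaving out 1 array gave 0 to 144 calls in limma, with 0 without empty vector replicate 1 (1963 at an unadjusted p under 0.05), 0 without empty vector replicate 2 (2456), 8 without MAX vector replicate 1 and 144 without MAX vector replicate 2. Of the 76 related genes, 1 was called, against 5 with normexp, 2 with quantile normalisation, 3 with median scaling, 8 with trend and robust eBayes, 0 with the slide as a block, 0 of 107 with no filter, and 0 to 1 with 1 array left out. The Vcam1 log2 fold change moved to -1.34 with normexp, which adds 50 units to each signal, and ran from -2.31 to -1.96 with 1 array left out. L1cam and Thy1 passed in 2 of 14 alternatives, normexp and trend with robust eBayes, Icam1, Ncam1 and Cdh2 in 0. The causes were not tested.

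A replicate block in limma left 0 calls over all genes (3885 had an unadjusted p below 0.05) and 0 among the 76 related genes. The labels do not say that a number marks a shared passage, so the numbers are not taken as pairs. Deviations of arrays with the same number correlated at -0.018 across genes. This value cannot decide whether the numbers mark pairs, since MAX vector replicate 1 lies alone on slide 2.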
